A study of Homo sapiens with 6 samples.

Results

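The genes described here are those of the DNA replication machinery, read as the rows of the deposited count table whose symbol is one of 56 members chosen by name and function. All 56 were found among the 65746 genes of the table, and all 56 passed the filter on low counts. The study treated SU-DHL-8, a human cell line from a diffuse large B-cell lymphoma labelled wild type, with 15 µM beta-sitosterol (a plant sterol) for 24 h, and set these cultures against cultures given an equal concentration of the solvent DMSO for 24 h. RNA was sequenced in 3 libraries per group, labelled as replicates 1 to 3 of this 1 line. The labels do not say whether these came from separate cultures, so p-values measure the spread between these samples only, which may be technical. Of 8 B-cell marker genes, all were detected in every library, with a summed level of 2266 to 2429 CPM (counts scaled to the size of the library) after beta-sitosterol and 1889 to 2541 CPM in DMSO. Within that sum single markers moved in opposite directions: MS4A1 and CD79A were higher (log2 fold changes 2.23 and 1.05, edgeR adjusted p = 1.11e-04 and 5.35e-04), PAX5 and EBF1 lower (-1.67 and -2.07, edgeR adjusted p = 8.07e-05 and 3.31e-04), and the other 4 were not called. The 4 T-cell genes summed to 1.90 to 3.05 CPM after beta-sitosterol and 1.204 to 1.51 CPM in DMSO, with CD3E at 0 in every library, and the 4 monocyte genes to 6.35 to 8.40 and 4.61 to 7.04 CPM.

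A cell copies its genome once per division. The origin recognition complex marks start sites, CDC6 and CDT1 load the ring of MCM2 to MCM7 onto them in G1, and the CDC7 and DBF4 kinase, CDC45 and the GINS complex turn that ring into an active helicase in S phase. Polymerase alpha with primase then lays down primers, polymerases epsilon and delta extend them under the sliding clamp PCNA, and replication protein A (RPA) covers the exposed single strand. Many of these genes are known targets of E2F transcription factors, which switch them on at the entry to S phase. In RNA from whole cultures, fewer cells in S phase and less of a transcript per cell cannot be told apart.

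After beta-sitosterol, genes of the replicative helicase, of catalytic polymerase subunits, of DNA ligase and of chromatin assembly were lower, while the smallest RPA subunit, the primase catalytic subunit and a pair of origin recognition genes were higher. These calls did not hold alike over 20 alternative fits, a 2-fold minimum not counted. MCM3, MCM4, MCM5, CHAF1A and RPA3 kept theirs in all 20, and PRIM1 in 18. POLE, LIG1 and ORC6 were called in 15 each, ORC5 in 13, and the catalytic subunits POLA1 and POLD1 in 9 each. With the trend on length removed, POLE, LIG1, POLA1, POLD1 and RPA2 lost their calls. The fall was moderate: no member that fell did so by as much as 2-fold. MCM3 fell most among the called genes, to 58.5% of its DMSO level, and RPA3 rose most, to 3.501 times its DMSO level. In the edgeR quasi-likelihood test across 11525 genes, with a Benjamini-Hochberg adjusted p below 0.05 as the call, 11 members were lower and 5 higher. That is 19.6% of members called lower, against 21.8% of all genes tested, and 8.93% called higher, against 19.0% of all genes. Together 28.6% of the members were called, against 40.8% of all genes tested, so the machinery as a set did not move more often than genes at large. The median log2 fold change (beta-sitosterol over DMSO) was -0.12 over the members and -0.04 over all genes tested, with 36 members below 0 and 20 above. Relative transcript length in the deposited values ran from 0.43 to 0.86 in the 5 members called higher. In the 11 called lower it ran from 0.38 to 3.36. On log2(TPM + 1), from the TPM (the authors' length-scaled transcript values), 9 members were lower and 1 higher. Of all genes tested on that scale, 2226 (19.3%) were lower and 713 higher. That scaling placed the median of all genes at -0.19, and 24.3% of all calls were then higher, against 46.5% on counts. The deposited TPM did not add up to the same sum in each library. On a common percent scale the sums were 57.8, 57.0 and 57.6 after beta-sitosterol. In DMSO replicates 1, 2 and 3 they were 64.6, 39.5 and 69.2. The part of these unequal sums in the TPM results, here and below, was not tested.

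**Figure D1:**
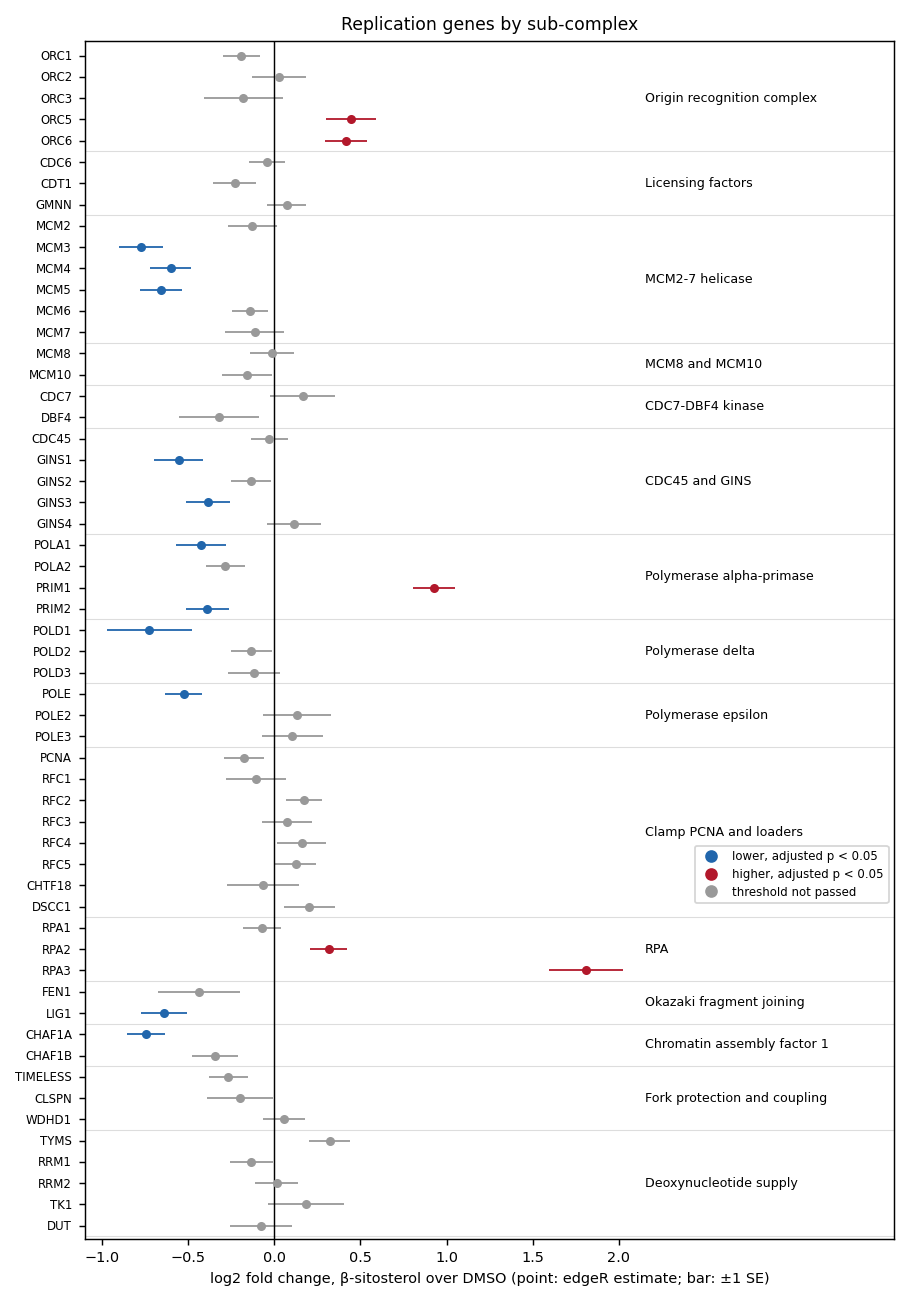
The log2 fold change of each of the 56 genes, beta-sitosterol over DMSO (x axis; point, edgeR estimate; bar, 1 SE; n = 3 libraries per group), grouped by sub-complex. The 11 genes called lower lie between -0.77 and -0.38 and belong to 7 sub-complexes; of the 5 called higher, RPA3 (1.81) and PRIM1 (0.93) lie apart.

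Promoter sequence was examined because it is a feature that the choice of members did not use. RefSeq promoter windows of GRCh38.p14, reaching from 250 bases before to 50 bases after an annotated start, were listed for 49 of the members. None was listed for MCM4 and MCM5 (called lower), RPA2 and RPA3 (called higher), or GINS4, POLD3 and DSCC1 (not called). Those genes were not searched and are outside the counts below. The 4 E2F words TTTGGCGC, TTTCGCGC, TTTCCCGC and TTTGCCGC were searched on both strands. At least 1 word stood in a window of 23 of the 49 genes (46.9%), against 5.40% of 15843 protein-coding genes and 6.76% of the 8981 with a window among the genes tested. The words were found in 6 of 9 members called lower, in 0 of 3 called higher and in 17 of 37 not called. With 3 genes in the group called higher, no difference between the calls can be read from these counts. The CCAAT box, read as CCAAT on either strand, stood in 59.2% of the members, against 43.8% of the genes tested. The GC box GGGCGG stood in 79.6%, against 76.0%, and the cell cycle word TTTGAA or TTCGAA in 10.2%, against 16.0%, both strands searched. The 5 stretches that follow lie upstream of the listed start, with each E2F word in capitals on the strand of the gene. MCM3, POLE and LIG1 are shown as genes that fell, MCM6 as a ring partner of MCM3 that was not called and has the most words, and PRIM1 as a gene that rose and has no such word in its window. In MCM6 the words TTTGGCGC and, on the other strand, TTTCGCGC overlap within each capital run.
MCM3 (chr6:52284807-52284926, minus strand): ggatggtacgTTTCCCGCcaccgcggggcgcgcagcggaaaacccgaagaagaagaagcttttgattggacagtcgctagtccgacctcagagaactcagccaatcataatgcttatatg
MCM6 (chr2:135876486-135876605, minus strand): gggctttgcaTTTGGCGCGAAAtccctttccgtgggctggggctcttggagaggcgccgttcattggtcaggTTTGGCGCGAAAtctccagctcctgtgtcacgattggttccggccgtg
POLE (chr12:132687343-132687462, minus strand): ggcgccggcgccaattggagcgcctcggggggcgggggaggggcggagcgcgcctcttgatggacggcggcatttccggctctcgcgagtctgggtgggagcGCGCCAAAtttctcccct
LIG1 (chr19:48170349-48170468, minus strand): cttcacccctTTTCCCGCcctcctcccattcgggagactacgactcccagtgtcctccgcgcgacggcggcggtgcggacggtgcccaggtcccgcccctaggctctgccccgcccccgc
PRIM1 (chr12:56752324-56752443, minus strand): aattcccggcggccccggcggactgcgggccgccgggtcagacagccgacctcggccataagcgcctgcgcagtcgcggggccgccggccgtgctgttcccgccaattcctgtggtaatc

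Libraries differed in ways that touch the members. Totals ran from 26453281 to 29360142 counts after beta-sitosterol and from 31314446 to 35565620 in DMSO. The median SD of a member between replicates was 0.05 log2 units after beta-sitosterol and 0.19 in DMSO. The DMSO spread followed base composition: over the 56 members, the deviation of a gene from its DMSO mean went with the GC content of its longest transcript at Spearman's rho -0.60 in DMSO replicate 2 and 0.84 in DMSO replicate 3, and over 11145 genes tested at -0.51 and 0.72. These are descriptions across genes that share the libraries. The deviations of a gene cancel out over the DMSO libraries, so opposite signs are in part built in and the rhos are not independent. POLD1, TK1 and CHTF18, which are among the members richest in GC, and FEN1 were lowest in DMSO replicate 2 and highest in replicate 3. Refits with the trend on length, or on length and GC, removed changed some calls. With length removed, CDT1, PCNA, FEN1 and CHAF1B passed as lower (adjusted p = 0.032, 0.012, 0.043 and 0.033), and POLA1, POLD1, POLE, LIG1 and RPA2 lost their calls. With length and GC removed, MCM6, PCNA, FEN1 and CHAF1B passed as lower, RFC2 and TYMS as higher, and POLE lost its call. Over the 56 members, the log2 fold change went with GC content at Spearman's rho -0.30 and with relative length at -0.29. Over the 11145 genes tested, these rhos were -0.09 and -0.23. The part of base composition or length in the differences between groups was not tested otherwise.

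**Figure D2:**
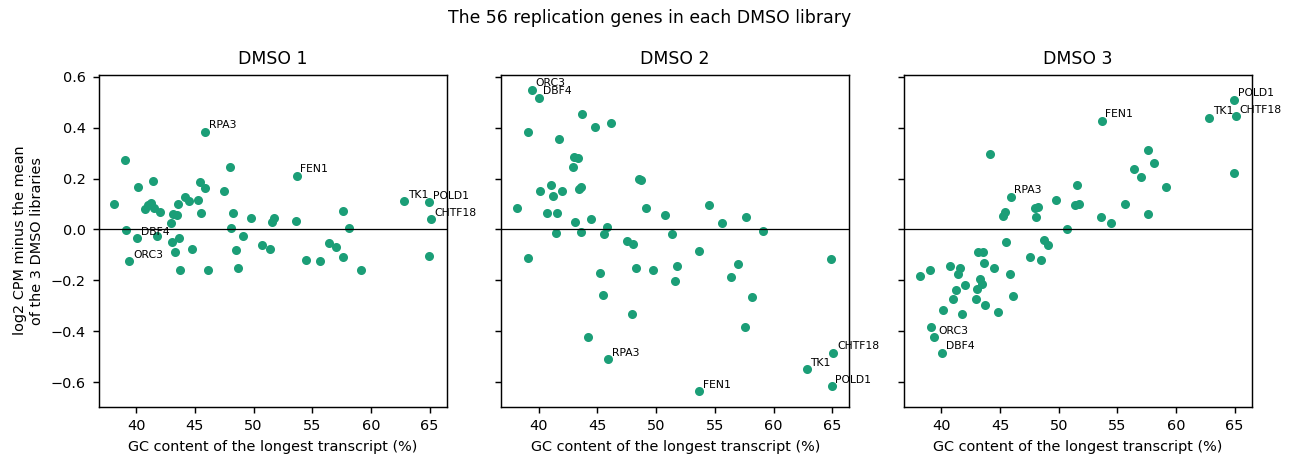
Log2 CPM of the 56 genes in each DMSO library minus the mean of the 3 DMSO libraries (y axis), against the GC content of the longest transcript in percent (x axis; 1 point per gene). Points slope down in DMSO replicate 2 (rho -0.60) and up in DMSO replicate 3 (rho 0.84), with POLD1, TK1, CHTF18 and FEN1 at opposite ends of the 2 panels. The panels are not independent, since the deviations of a gene cancel out over the 3 libraries.

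Origin recognition genes split. ORC5 and ORC6, which encode the fifth subunit and the small sixth subunit, were higher, and ORC1, ORC2 and ORC3 passed in neither direction. ORC5 stood at 45.5, 50.4 and 47.1 CPM after beta-sitosterol and at 37.1, 39.2 and 28.7 CPM in DMSO, with no overlap (log2 fold change 0.44 ± 0.15 SE, edgeR adjusted p = 0.039). ORC6 stood at 76.3, 70.9 and 69.0 CPM after beta-sitosterol and at 59.8, 52.2 and 50.0 CPM in DMSO, also with no overlap (0.42 ± 0.12, edgeR adjusted p = 0.024). ORC1, the subunit whose level cycles in human cells, was at 104, 103 and 105 CPM after beta-sitosterol and at 114, 124 and 119 CPM in DMSO. Its 3 treated values all lay below the DMSO values, but the difference missed the threshold (-0.19 ± 0.11, edgeR adjusted p = 0.18). ORC4, a subunit outside the members, was not called (0.46 ± 0.20, edgeR adjusted p = 0.098), though its treated values all lay above its DMSO values. Among the 5 member genes, ORC4 left out, ORC1 held the largest share of the summed deposited TPM, per length, in every library. The ORC1 share was 45.3% ± 1.14 after beta-sitosterol and 52.0% ± 4.43 in DMSO, and the ORC5 share 14.6% ± 0.62 and 10.7% ± 0.93 (SD, n = 3 each). Both calls depended on which library was left out: without DMSO replicate 2 the adjusted p of ORC5 was 0.0020 and that of ORC6 0.0063, whereas without any 1 of the treated libraries the adjusted p of ORC5 was 0.097 to 0.149 and that of ORC6 0.073 to 0.12, and without DMSO replicate 1 that of ORC5 was 0.074. On log2(TPM + 1) neither passed (adjusted p = 0.49 and 0.65), with the shift of all genes and the unequal TPM sums given above.

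Of the licensing factors, 0 of 3 were called. CDT1, which brings the MCM ring to origins, had the smallest p, at 225, 215 and 219 CPM after beta-sitosterol and 238, 236 and 298 CPM in DMSO (-0.23 ± 0.13, edgeR adjusted p = 0.18). The treated values lay just under the lowest DMSO value, and the high value was DMSO replicate 3. CDC6, the loading ATPase, and GMNN, which encodes the CDT1 inhibitor geminin, had log2 fold changes of -0.04 and 0.07 with overlapping groups. CDT1 passed without DMSO replicate 2 (-0.29, adjusted p = 0.017).

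Of the MCM2 to MCM7 ring, which unwinds the DNA, MCM3, MCM4 and MCM5 fell, and MCM2, MCM6 and MCM7 did not pass, although all 6 had a log2 fold change below 0 and 4 of the 6 had no overlap between groups. The median of the ring was -0.37. Without overlap and with beta-sitosterol below DMSO were 16 of the 56 members (28.6%), against 29.1% of all genes tested, and with beta-sitosterol above DMSO 7 members (12.5%), against 27.0%.

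MCM3 (ENSG00000112118, chromosome 6, 52264015 to 52284742) stood at 783, 809 and 839 CPM after beta-sitosterol and at 1405, 1196 and 1553 CPM in DMSO. Every treated library lay below every DMSO library by a wide margin (-0.77 ± 0.13, edgeR adjusted p = 0.0021). MCM4 stood at 517, 509 and 501 CPM after beta-sitosterol and at 727, 883 and 708 CPM in DMSO (-0.60 ± 0.12, edgeR adjusted p = 0.0050). MCM5 stood at 386, 378 and 384 CPM after beta-sitosterol and at 573, 547 and 694 CPM in DMSO (-0.66 ± 0.12, edgeR adjusted p = 0.0035). These 3 genes, with RPA3 and CHAF1A, were the 5 called members that kept their call in all 20 alternatives other than a 2-fold minimum, which RPA3 alone passed. For MCM3 the log2 fold change over those fits ranged from -1.02 to -0.62.

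The other ring genes had smaller differences. MCM6, whose promoter holds the most E2F words printed above, was at 316, 334 and 343 CPM after beta-sitosterol and at 381, 373 and 344 CPM in DMSO, the highest treated value touching the lowest DMSO value (-0.14 ± 0.10, edgeR adjusted p = 0.30). MCM7, the member with the highest CPM, was at 1664, 1703 and 1792 CPM after beta-sitosterol and at 1918, 1400.0 and 2265 CPM in DMSO. DMSO replicate 2 lay under all treated libraries, and the groups overlapped (-0.11 ± 0.17, edgeR adjusted p = 0.62). MCM2 overlapped likewise, with 537 CPM in DMSO replicate 2 and 773 CPM in DMSO replicate 3. Without DMSO replicate 2, MCM2 and MCM7 passed as lower (-0.26, adjusted p = 0.017, and -0.29, adjusted p = 0.0073), while MCM6 passed in 3 alternatives, all with the length and GC trend removed (-0.31, adjusted p = 0.0093 with all libraries). The sign of MCM2 was negative in 17 of 20 alternatives and that of MCM7 in 14 of 20. As a share of the summed TPM of the ring, which does not depend on library scaling, MCM3 held 19.0% ± 0.19 after beta-sitosterol and 25.1% ± 0.85 in DMSO, and MCM7 26.6% ± 0.37 and 22.1% ± 3.13 (SD, n = 3 each). MCM3 had the highest TPM of the ring in all 3 DMSO libraries, and MCM7 in all 3 treated libraries.

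MCM8 and MCM10, relatives or partners of the ring with roles in repair and in helicase activation, were not called. MCM10 was at 121, 128 and 132 CPM after beta-sitosterol and at 132, 170.4 and 123 CPM in DMSO, where replicate 2 stood highest (-0.16 ± 0.14, edgeR adjusted p = 0.42), and without that library the log2 fold change was -0.0070. MCM8 had a log2 fold change of -0.02. Outside the members, MCM9 was called lower (-0.53 ± 0.13, edgeR adjusted p = 0.013). It averaged 23.9 CPM after beta-sitosterol and 34.6 CPM in DMSO, with no overlap.

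**Figure D3:**
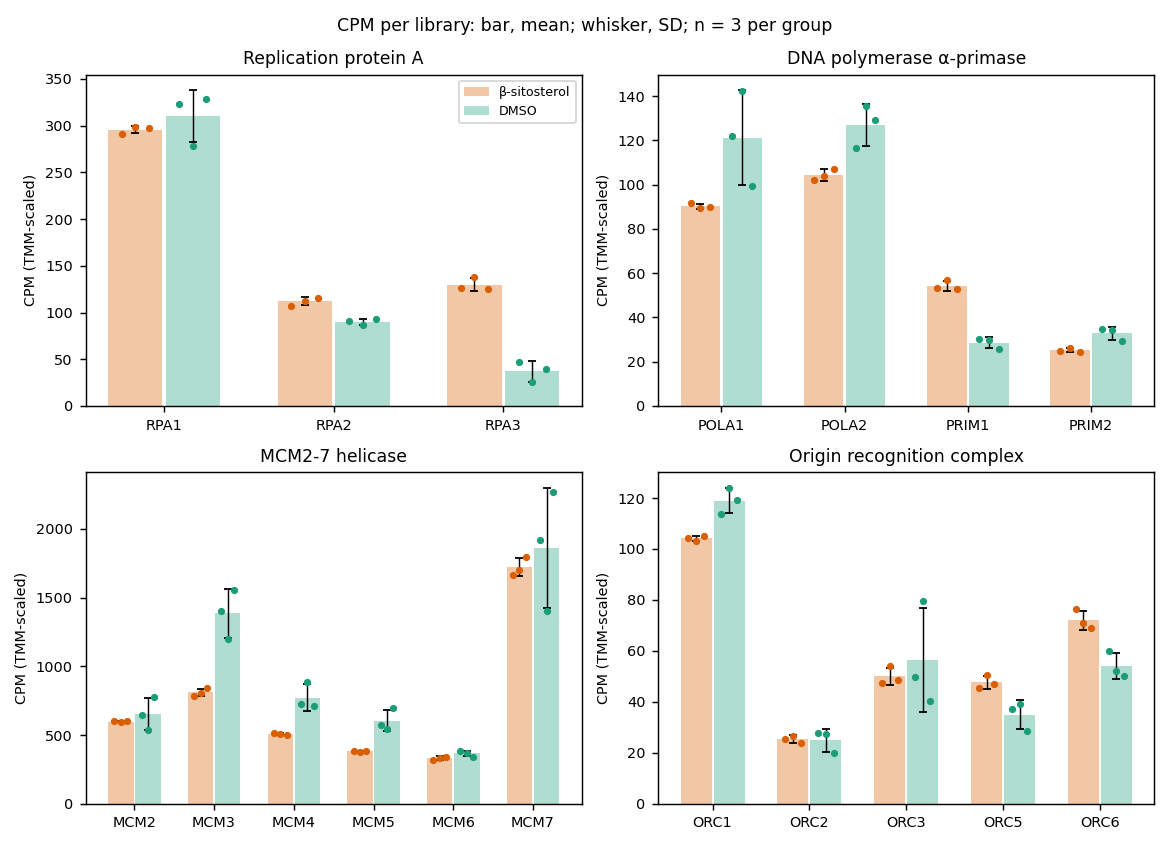
CPM in each library for the genes of RPA, polymerase alpha-primase, the MCM2 to MCM7 ring and the origin recognition complex (bar, mean; whisker, SD; point, library; n = 3 per group; beta-sitosterol left, DMSO right). RPA3 and PRIM1 lie wholly above DMSO, MCM3, MCM4 and MCM5 wholly below, and DMSO points are more widely scattered than treated points.

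Firing of licensed origins needs the CDC7 kinase with its activator DBF4, neither of which was called. DBF4 stood at 78.5, 76.5 and 65.5 CPM after beta-sitosterol and at 86.1, 126 and 63.0 CPM in DMSO (-0.32 ± 0.23, edgeR adjusted p = 0.30). Its DMSO values spanned the treated ones, replicate 2 being high and replicate 3 low, and without DMSO replicate 2 the log2 fold change was -0.025 (adjusted p = 0.88). DBF4 passed as lower in 1 alternative, with length and GC removed and DMSO replicate 2 left out (-0.17, adjusted p = 0.030). CDC7 was at 50.4, 49.2 and 44.8 CPM after beta-sitosterol and at 41.9, 54.8 and 32.1 CPM in DMSO, and without DMSO replicate 2 it passed as higher (0.37, adjusted p = 0.018). The share of the CDC7 and DBF4 TPM held by CDC7 was 49.5% ± 0.92 after beta-sitosterol and 41.5% ± 2.01 in DMSO (SD, n = 3 each), a difference seen in every library.

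CDC45 and the 4 GINS genes, which complete the active helicase, divided again. GINS1 stood at 81.7, 71.0 and 66.3 CPM after beta-sitosterol and at 122, 105 and 94.3 CPM in DMSO (-0.55 ± 0.14, edgeR adjusted p = 0.014). GINS3 stood at 50.5, 57.2 and 51.2 CPM after beta-sitosterol and at 67.3, 77.4 and 62.8 CPM in DMSO (-0.38 ± 0.13, edgeR adjusted p = 0.040). Neither gene overlapped between groups. CDC45, at 130.2, 135 and 135 CPM after beta-sitosterol and 129, 134 and 145 CPM in DMSO, differed by less than the spread between replicates (-0.03 ± 0.11, edgeR adjusted p = 0.85). GINS2 and GINS4 had log2 fold changes of -0.14 and 0.12. The GINS1 call was lost without treated replicate 2 or 3 or DMSO replicate 1 (adjusted p = 0.072, 0.080 and 0.051). GINS3 was lost without treated replicate 1, 2 or 3 (adjusted p = 0.159, 0.087 and 0.154) or DMSO replicate 1 (0.074).

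Polymerase alpha-primase held both directions within 1 enzyme. PRIM1, the catalytic primase subunit, rose, while POLA1, the polymerase subunit, and PRIM2, the large primase subunit, fell. PRIM1 (ENSG00000198056, chromosome 12, 56731580 to 56752323) stood at 53.5, 56.8 and 52.7 CPM after beta-sitosterol and at 30.1, 29.8 and 25.7 CPM in DMSO (0.93 ± 0.12, edgeR adjusted p = 7.42e-04). The treated libraries lay at nearly double the DMSO level, at 1.90-fold. POLA1 stood at 91.5, 89.4 and 89.9 CPM after beta-sitosterol and at 122, 142 and 99.2 CPM in DMSO (-0.42 ± 0.15, edgeR adjusted p = 0.047). PRIM2 stood at 25.02, 26.03 and 24.4 CPM after beta-sitosterol and at 34.8, 34.3 and 29.6 CPM in DMSO (-0.39 ± 0.12, edgeR adjusted p = 0.036). For both genes all treated values lay under all DMSO values. POLA2, the regulatory subunit, had no overlap either but missed the threshold (-0.28 ± 0.11, edgeR adjusted p = 0.074), and passed without DMSO replicate 2 (-0.24, adjusted p = 0.031).

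PRIM1 held 31.7% ± 0.86 of the summed TPM of the 4 genes after beta-sitosterol and 16.1% ± 0.95 in DMSO (SD, n = 3 each). The ratio is free of library scaling, and each treated library exceeded each DMSO library. In GENCODE v29, 21.6% of PRIM1 exon bases are shared with other annotated genes, among them NACA on the same strand and HSD17B6 on the opposite strand. Both neighbours were higher as well: NACA averaged 2088 CPM after beta-sitosterol and 1013 CPM in DMSO (log2 fold change 1.04, edgeR adjusted p = 0.0028), and HSD17B6 11.9 and 5.06 CPM (1.23, edgeR adjusted p = 9.28e-04). How reads in the shared bases were assigned is not given in the sources used here, and their part in the PRIM1 difference was not tested. PRIM1 narrowly missed on log2(TPM + 1) (0.65, adjusted p = 0.051) and on log2(TPM + 0.1) (0.67, adjusted p = 0.052). POLA1 and PRIM2 missed without treated replicate 1, 2 or 3 (adjusted p = 0.132, 0.147 and 0.143 for POLA1, and 0.129, 0.112 and 0.143 for PRIM2) and without DMSO replicate 1 (0.106 and 0.093). With the replicate number as a block they also missed (adjusted p = 0.058 and 0.053). Over the 20 alternatives POLA1 was called in 9 and PRIM2 in 12.

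**Figure D4:**
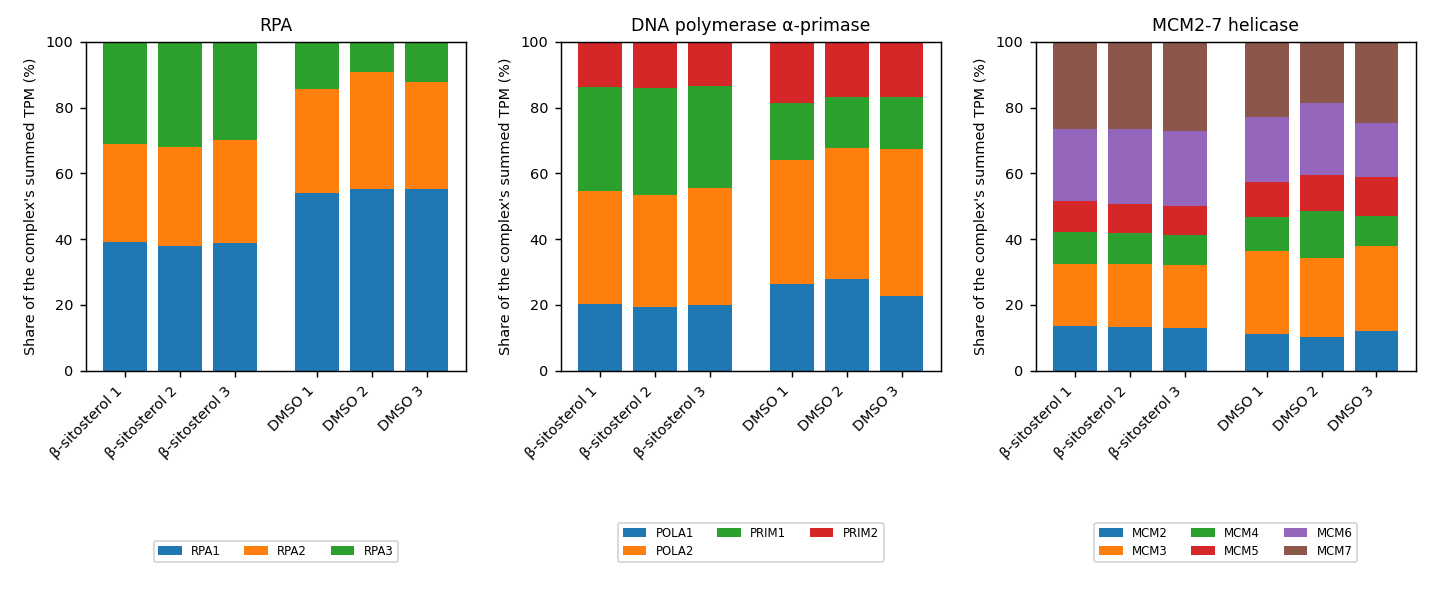
Share of each gene in the summed deposited TPM of its complex, in percent, for RPA, polymerase alpha-primase and the MCM2 to MCM7 ring (1 stacked bar per library; 3 beta-sitosterol libraries left, 3 DMSO libraries right). RPA3 takes 31.0% after beta-sitosterol and 11.9% in DMSO, PRIM1 31.7% and 16.1%, and MCM3 19.0% and 25.1% (means of 3 libraries).

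The catalytic subunits of the leading and lagging strand polymerases fell, and the 4 accessory subunits among the members did not pass. Outside the members, POLE4, an accessory subunit of polymerase epsilon, was called higher (1.19 ± 0.29, edgeR adjusted p = 0.012). It averaged 42.8 CPM after beta-sitosterol and 18.7 CPM in DMSO, with no overlap. POLD4 of polymerase delta, also outside the members, was not called (0.83 ± 0.40, edgeR adjusted p = 0.13). POLE, the catalytic subunit of polymerase epsilon, stood at 274, 269 and 275 CPM after beta-sitosterol and at 359.5, 399 and 421 CPM in DMSO (-0.53 ± 0.11, edgeR adjusted p = 0.0054). All treated libraries were below all DMSO libraries. POLE has the longest transcript length of the members in the deposited values, and with the trend on length removed its log2 fold change was -0.22 (adjusted p = 0.18). With length and GC removed it was -0.11 (adjusted p = 0.25). POLD1, the catalytic subunit of polymerase delta, stood at 172, 156 and 168 CPM after beta-sitosterol and at 279.8, 169.5 and 370.0 CPM in DMSO (-0.73 ± 0.25, edgeR adjusted p = 0.044). It was the only called member whose groups overlapped, since DMSO replicate 2 lay within the treated range. The POLD1 difference was -0.98 without DMSO replicate 2 (adjusted p = 1.80e-06) and -0.40 without DMSO replicate 3 (0.13). It also missed without treated replicate 1, 2 or 3 (adjusted p = 0.106, 0.128 and 0.112) or DMSO replicate 1 (0.118). Over the 20 alternatives POLD1 was called in 9 and POLE in 15.

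The accessory subunits POLD2, POLD3, POLE2 and POLE3 had log2 fold changes of -0.13, -0.12, 0.13 and 0.11. POLE2 stood at 36.0, 36.2 and 33.8 CPM after beta-sitosterol and at 28.2, 43.1 and 25.6 CPM in DMSO, replicate 2 being the high one. POLE3, a histone-fold subunit, showed the same picture at 252, 265 and 265 CPM after beta-sitosterol and 212, 317 and 198 CPM in DMSO. Without DMSO replicate 2 both passed as higher (POLE2 0.39, adjusted p = 0.0081; POLE3 0.34, adjusted p = 0.0025). The POLE share of the summed TPM of the 3 epsilon genes among the members, POLE4 left out, was 13.98% ± 0.36 after beta-sitosterol and 20.7% ± 4.28 in DMSO (SD, n = 3 each). It was lower in every treated library.

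No gene of the sliding clamp and its loaders was called, 0 of 8, with log2 fold changes from -0.17 to 0.20. PCNA, the clamp itself, was at 793, 801 and 809.7 CPM after beta-sitosterol and at 978, 800.5 and 936 CPM in DMSO (-0.17 ± 0.12, edgeR adjusted p = 0.26). DMSO replicate 2 matched the treated libraries and the other DMSO libraries lay above them. RFC2, a small subunit of the loader, had the smallest p, at 193, 199 and 193 CPM after beta-sitosterol and 177, 163 and 179 CPM in DMSO with no overlap (0.17 ± 0.10, edgeR adjusted p = 0.21). With length and GC removed, RFC2 passed as higher (0.31, adjusted p = 0.010) and PCNA as lower (-0.40, adjusted p = 0.0038). RFC2 passed in 3 of the 20 alternatives and PCNA in 6, and on log2(TPM + 1) RFC2 stood at -0.08. RFC1, RFC3, RFC4, RFC5 and the alternative loader genes CHTF18 and DSCC1 overlapped between groups. CHTF18 was at 155, 152 and 165 CPM after beta-sitosterol and at 164, 114 and 217 CPM in DMSO. Without DMSO replicate 2, PCNA passed as lower (-0.26, adjusted p = 0.0065), as did CHTF18 (-0.28, adjusted p = 0.038). With the length and GC trend removed as well, CHTF18 turned to 0.15 (adjusted p = 0.012) and PCNA stood at -0.43.

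RPA covers single-stranded DNA as a trimer, and its genes moved apart. RPA3, the smallest subunit (ENSG00000106399, chromosome 7, 7636518 to 7718607), stood at 127, 138 and 125 CPM after beta-sitosterol and at 46.9, 25.2 and 39.3 CPM in DMSO. Each treated library held more than double the highest DMSO value (1.81 ± 0.21, edgeR adjusted p = 5.12e-04). RPA2, the middle subunit, stood at 107, 113 and 116 CPM after beta-sitosterol and at 90.4, 86.4 and 93.2 CPM in DMSO without overlap (0.32 ± 0.11, edgeR adjusted p = 0.045). RPA1, the large DNA-binding subunit, was at 291, 298 and 298 CPM after beta-sitosterol and at 323, 279 and 329 CPM in DMSO (-0.07 ± 0.11, edgeR adjusted p = 0.64). Per length, RPA3 held 31.0% ± 1.14 of the summed TPM of the trimer after beta-sitosterol and 11.9% ± 2.62 in DMSO, and RPA1 38.6% ± 0.54 and 54.9% ± 0.65 (SD, n = 3 each). After beta-sitosterol the RPA2 and RPA3 transcripts were close to each other in TPM in every library, whereas in DMSO RPA3 was the lowest of the 3 throughout.

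The RPA3 difference ranged from 1.53 to 2.01 over the 20 alternatives and was called in all of them. In GENCODE v29, 3.65% of RPA3 exon bases are shared with opposite-strand genes, UMAD1 among them, and UMAD1 was lower (7.01 CPM after beta-sitosterol and 13.8 CPM in DMSO, log2 fold change -0.97, edgeR adjusted p = 0.011). The RPA2 call was lost without treated replicate 1, 2 or 3 (adjusted p = 0.12, 0.17 and 0.183), without DMSO replicate 1 (0.090) and with a replicate block (0.085), and on log2(TPM + 1) the value was 0.06. Pseudogenes named after RPA2 and 9 other members are annotated, and how reads that match a gene and its copy were counted is not given in the sources used here.

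Joining of Okazaki fragments uses the flap nuclease FEN1 and DNA ligase I. LIG1, whose promoter stretch with its E2F word is printed above, stood at 102, 104 and 106 CPM after beta-sitosterol and at 155, 141 and 190.0 CPM in DMSO with no overlap (-0.64 ± 0.13, edgeR adjusted p = 0.0062). It missed with the length trend removed (-0.39, adjusted p = 0.072) and on log2(TPM + 1) (adjusted p = 0.057). FEN1 stood at 150.2, 154 and 150.1 CPM after beta-sitosterol and at 226, 126 and 263 CPM in DMSO (-0.44 ± 0.24, edgeR adjusted p = 0.18). DMSO replicate 2 lay under every treated library and the other DMSO libraries well above. Without DMSO replicate 2, FEN1 passed at -0.70 (adjusted p = 8.47e-06).

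Chromatin assembly factor 1 places histones on new DNA behind the fork. CHAF1A, its large subunit (ENSG00000167670, chromosome 19, 4402640 to 4450830), fell in every treated library, at 137, 139 and 148 CPM, against 219.6, 245 and 247 CPM in DMSO (-0.75 ± 0.11, edgeR adjusted p = 0.0012). The fall held in all 20 alternatives, from -1.001 to -0.60. CHAF1B, the middle subunit, was at 35.2, 38.1 and 39.3 CPM after beta-sitosterol and at 42.7, 54.2 and 46.1 CPM in DMSO. Its groups did not overlap, but it missed the threshold (-0.34 ± 0.13, edgeR adjusted p = 0.067), which it passed in 7 of the 20 alternatives.

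Fork protection genes were not called. TIMELESS, which couples the helicase to the polymerases and to the checkpoint, was at 174, 182 and 188 CPM after beta-sitosterol and at 224, 197 and 233 CPM in DMSO, without overlap (-0.27 ± 0.11, edgeR adjusted p = 0.092). Without DMSO replicate 2 it passed as lower (-0.34, adjusted p = 0.0025). CLSPN, which encodes the checkpoint mediator claspin, and WDHD1, the human counterpart of yeast Ctf4, had log2 fold changes of -0.20 and 0.06 with overlapping groups.

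The genes of deoxynucleotide supply gave 0 calls among 5. TYMS, thymidylate synthase, was closest, at 146, 147 and 151 CPM after beta-sitosterol and 122, 106 and 128 CPM in DMSO (0.32 ± 0.12, edgeR adjusted p = 0.056). All treated libraries lay above all DMSO libraries, and TYMS passed as higher in 8 of 20 alternatives, without DMSO replicate 2 (0.24, adjusted p = 0.025) and without DMSO replicate 3 (0.42, adjusted p = 0.017) among them. In GENCODE v29, 46.6% of TYMS exon bases are shared with opposite-strand genes, ENOSF1 among them, which averaged 6.46 CPM after beta-sitosterol and 11.4 CPM in DMSO. RRM1 and RRM2, the subunits of ribonucleotide reductase, had log2 fold changes of -0.13 and 0.01. TK1, thymidine kinase, was at 216, 214 and 217 CPM after beta-sitosterol and at 197, 125 and 247 CPM in DMSO, the DMSO values spanning the treated ones. DUT, which removes dUTP, was at 138, 136 and 132 CPM after beta-sitosterol and at 153, 104 and 172 CPM in DMSO, and passed as lower without DMSO replicate 2 (-0.27, adjusted p = 0.017).

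**Figure D5:**
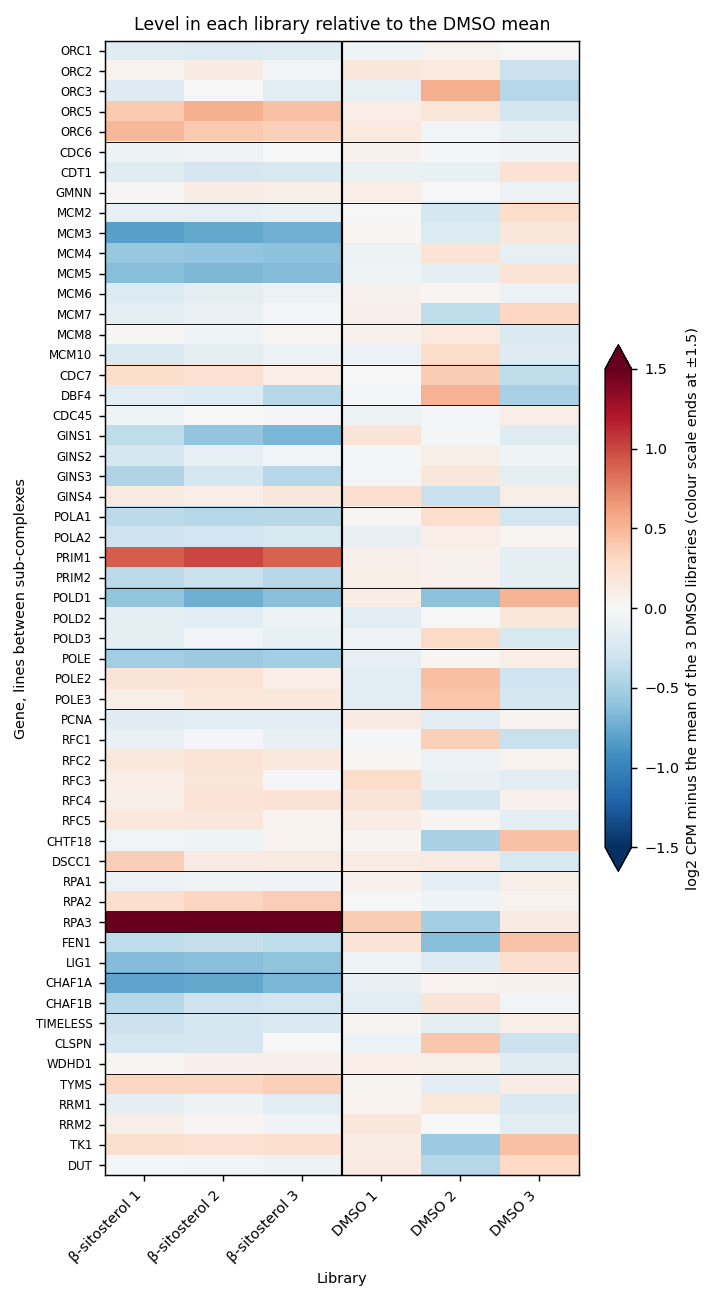
Log2 CPM of each gene in each library minus its mean over the 3 DMSO libraries (colour; rows, 56 genes in 15 sub-complexes; columns, 3 beta-sitosterol libraries left and 3 DMSO libraries right). The treated columns are nearly alike, with RPA3 and PRIM1 high and MCM3, CHAF1A, MCM5 and LIG1 low. DMSO replicates 2 and 3 depart from the DMSO mean in opposite directions for many genes. This is in part built in, since the DMSO deviations of a gene cancel out.

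Of the 6 fits that left out 1 library each, the one without DMSO replicate 2 changed the members' count most. In that fit 20 members were lower and 9 higher, 51.8% of the members, against 56.6% of the 11724 genes tested (30.3% lower and 26.4% higher). All 16 calls of the full fit were kept, and 9 lower and 4 higher calls were added: CDT1, MCM2, MCM7, POLA2, PCNA, CHTF18, FEN1, TIMELESS and DUT lower, and CDC7, POLE2, POLE3 and TYMS higher. Without DMSO replicate 1 the counts were 6 lower and 3 higher, against 2038 (17.4%) and 1781 of 11715 genes tested. Without DMSO replicate 3 they were 10 and 6, against 2578 (22%) and 2564 of 11725 genes. Without treated replicate 1, 2 or 3 the members called lower numbered 7, 6 and 6, and those called higher 2 each time. Of the 11765, 11786 and 11742 genes tested in those fits, 13.7%, 13.5% and 14.1% were lower, and 1510, 1501 and 1507 genes were higher.

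A further 44 genes that act in or beside replication, all of which passed the filter, were read from the same fit. Of these, 8 (18.2%) were lower, against 21.8% of all genes tested, and 4 (9.09%), NME1, POLE4, ASF1A and HELLS, were higher, against 19.0%, with a median log2 fold change of -0.07. DBF4B, a relative of DBF4 that also activates CDC7, was at 38.1, 39.6 and 43.4 CPM after beta-sitosterol and at 81.0, 102 and 92.5 CPM in DMSO (-1.19 ± 0.13, edgeR adjusted p = 3.94e-04). It lay well below DMSO in every treated library. TICRR, which brings CDC45 to licensed origins, was at 62.9, 64.6 and 60.9 CPM after beta-sitosterol and at 100.02, 126 and 105.6 CPM in DMSO (-0.81 ± 0.13, edgeR adjusted p = 0.0016). TOP1, the topoisomerase that relieves twist ahead of the fork, was at 298, 316 and 285 CPM after beta-sitosterol and at 493, 721 and 442 CPM in DMSO (-0.88 ± 0.18, edgeR adjusted p = 0.0057). CCNA2, the S-phase cyclin A gene, was at 176, 172 and 167 CPM after beta-sitosterol and at 249, 288 and 245 CPM in DMSO (-0.60 ± 0.11, edgeR adjusted p = 0.0037). NME1, a nucleoside diphosphate kinase, rose to 74.4, 80.5 and 78.0 CPM after beta-sitosterol, against 48.8, 47.4 and 45.6 CPM in DMSO (0.71 ± 0.11, edgeR adjusted p = 0.0014). None of these 5 genes overlapped between groups, but they were picked by smallest p. Of all genes tested, 56.1% had no overlap in either direction. Without DMSO replicate 2, 16 of the 44 were lower and 7 higher, in a fit where 30.3% of all genes tested were lower and 26.4% higher.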

How the data were processed

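RNA from 6 SU-DHL-8 samples, 3 per group, was sequenced. The deposited table holds raw read counts per gene and TPM made by the authors, with fastp 0.23.2, STAR 2.7.10, featureCounts 2.0.1, StringTie 2.2.1 and GRCh38 named in the submitters' processing notes; strandedness is not given in the sources used here. Of 65807 rows, 61 repeats of a symbol were dropped, and 11525 genes passed edgeR's filterByExpr. Groups were compared with edgeR 4.0.16 (R 4.3.3; TMM factors, quasi-likelihood F test, treatment as the only term, two-sided, Benjamini-Hochberg over all genes tested), after a check on simulated data. SEs were derived from the log2 fold change and its F statistic. CPM are TMM-scaled, and shares within a complex use the deposited TPM. Alternatives used DESeq2 1.42.0 and limma 3.58.1. The members and lists were chosen with earlier results of these data known. Values per library are given for every called member and, where a sub-complex had none, for the member of smallest p; other members given in full were picked after their values were seen. Of the other replication genes, the 5 of smallest p are given per library. ORC4, MCM9, POLD4 and POLE4 are given beside the members of their complexes or groups, chosen after their values were seen. Exon overlaps and GC content come from GENCODE v29, and promoters and gene coordinates from RefSeq, GRCh38.p14. Replicates differed by more than counting noise, so no library was a copy or a resplit of another; whether libraries came from separate cultures cannot be read from this.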

Additional observations from a re-analysis of the deposited data

How the results depend on the processing

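Of the 16 called members, 5 (MCM3, MCM4, MCM5 and CHAF1A lower, RPA3 higher) kept their call in all 20 alternatives other than the 2-fold minimum, 11 lost it in at least 1 of these, and 0 changed sign; 22 members not called passed in at least 1. Leaving out 1 library each gave 6 to 20 members lower and 2 to 9 higher, 6 to 16 and 2 to 7 of the 44 other replication genes, and 1593 to 3549 and 1501 to 3091 of all genes. A fold minimum of 2 left 0 members lower and 1 higher, 1 and 1 of the other replication genes, and 734 and 1048 of all genes, by its own construction. On log2(TPM + 1) and log2(TPM + 0.1), 1 and 1 members, 0 and 0 of the other replication genes, and 713 and 691 of all genes were higher. The medians of all genes were -0.19 and -0.26. The median of the members moved with them, from -0.12 on counts to -0.34 and -0.35. With each library scaled to its median, a gene's ratio of counts to TPM had a median relative spread of 0.0141 over libraries. Within this common shift RFC2 reversed to -0.0807 and -0.0812 (adjusted p = 0.83 each). Other members also turned from above to below 0, ORC2, CDC7, RFC4 and TK1 among them. The cause of the common shift was not tested, nor was the part of the unequal TPM sums given above. Of the other replication genes, 8 were higher with the length trend removed and 10 with length and GC removed. Over all genes tested, 2247 of 11289 and 2730 of 11145 were higher in those fits. A fit with both trends removed and DMSO replicate 2 left out was chosen after seeing the data, as were the fits on length and GC. In it 21 members were lower and 12 higher, and 17 and 18 of the other replication genes. Of the 11185 genes tested there, 3759 (33.6%) were lower and 3695 higher. The cause of these shifts was not tested.

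The replicate number as a block gave 9 members lower and 4 higher, and 7 of the other replication genes higher. Of the 11525 genes tested with the block, 2437 were lower and 2306 higher. With the block, the other replication genes called higher were 10 with length removed and 11 with length and GC removed. Of all genes, 2351 of 11289 and 2626 of 11145 were higher in those fits. Deviations of same-numbered libraries from their group means correlated at 0.04, 0.10 and 0.15 for replicates 1, 2 and 3, each library correlating best with its own number, a hint from the data and not the design; the numbers were not taken to pair the samples. All 56 members passed the filter on low counts; what depth limits among them was not tested.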
